A study of Mus musculus with 21 samples.

Results

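Inward rectifier and leak potassium channels set how negative a neuron rests and how easily it fires. The genes described here are 10 members of these families, found by symbol among the 21878 lines of a table of read counts: the inward rectifiers Kcnj3, Kcnj6, Kcnj9 and Kcnj11 and the tandem-pore leak channels Kcnk1, Kcnk2, Kcnk3, Kcnk9, Kcnk10 and Kcnk12. Each of the 10 had a line, and all 10 passed the filter on low counts that left 14968 genes for testing. The cells were spiral ganglion neurons, the auditory neurons that connect hair cells to the brainstem, taken from mouse cochleae at postnatal day 7. A library held about 50 neurons collected by micropipette, made into cDNA from polyadenylated RNA by the full-length Smart-seq2 method. The neurons came from cochleae given an adeno-associated virus whose cargo was either a site-mutated HCN2 (DN-HCN2), a shortened SK3 (truncated SK3), each labelled dominant-negative, or EGFP in the control, labelled WT. The channel HCN2 passes cations when the membrane is hyperpolarized, and SK3 passes potassium when calcium enters. Expression of the viral constructs was not tested here. Each condition was sampled in the cochlear base, which encodes high frequencies, and in the apex, which encodes low ones. DN-HCN2 had 3 libraries from the base and 4 from the apex, truncated SK3 had 3 from each, and control had 4 from each. Mouse strain, the promoter and serotype of the virus and the animals behind each library are not given in the sources used here. The labels call the libraries biological replicates without tying them to animals, so the p-values measure the spread between these libraries.

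Inward rectifiers carry potassium into the cell more easily than out of it and hold the membrane near the potassium equilibrium potential. Kcnj3 (GIRK1), Kcnj6 (GIRK2) and Kcnj9 (GIRK3) encode channels that G protein beta-gamma subunits open when a receptor such as the GABA-B or the adenosine A1 receptor is activated; GIRK1 needs another GIRK subunit to reach the surface as a working channel. Kcnj11 encodes the pore of the ATP-sensitive potassium channel, which closes when ATP is plentiful and is built together with a sulfonylurea receptor. The Kcnk genes encode subunits with a pair of pore domains that join as dimers and pass a background potassium current at all voltages. Kcnk1 (TWIK1) gives a weak leak current, Kcnk2 (TREK1) and Kcnk10 (TREK2) open with stretch, heat and fatty acids, Kcnk3 (TASK1) and Kcnk9 (TASK3) close in acid, and Kcnk12 (THIK2) gives little or no current on its own.

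The part of these genes that defines a potassium channel is the pore signature, the 5 codons of the selectivity filter. It occurred in frame at 1 place in the coding sequence of each Kcnj member and at 2 places in that of each Kcnk member. The windows below are 60 coding bases, 5′ to 3′ on the coding strand, from the longest coding transcript in GENCODE M21 (GRCm38), with the 15 bases of the signature in capitals. They are shown because the 3 GIRK genes, of which Kcnj3 carries the main result, are close relatives whose reads have to be told apart, and because Kcnk1, the most abundant member, shows the doubled pore of its family.
Kcnj3: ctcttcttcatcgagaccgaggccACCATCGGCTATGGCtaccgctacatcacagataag
Kcnj6: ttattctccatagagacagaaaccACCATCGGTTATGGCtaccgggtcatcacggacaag
Kcnj9: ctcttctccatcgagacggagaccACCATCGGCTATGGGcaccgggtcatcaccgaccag
Kcnj11: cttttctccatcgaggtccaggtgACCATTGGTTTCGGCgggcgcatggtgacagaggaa
Kcnk1, first pore: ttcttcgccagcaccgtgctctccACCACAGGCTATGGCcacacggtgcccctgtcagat
Kcnk1, second pore: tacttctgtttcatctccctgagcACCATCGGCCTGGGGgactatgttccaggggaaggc
Over this window Kcnj3 matched Kcnj9 at 81.7% of bases and Kcnj6 at 78.3%, and Kcnj6 matched Kcnj9 at 83.3%. Kcnj11 matched the GIRK genes at 56.7% to 63.3%. Even so, none of these 4 genes shared a 50-base stretch with another of the 4 in their longest transcripts. Of the 50-base stretches of Kcnj3, 29.5% also occurred, on the opposite strand, in the noncoding gene Gm26794, whose exons cover 31.1% of the exon bases of Kcnj3. Gm26794 has no line in the table, and whether strand was used in counting is not given in the sources used here, so reads of the pair cannot be told apart.

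Library totals ranged from 10411634 to 15138780 counts. Levels are given as CPM, read counts brought to a common library total after scaling by the TMM method, and between genes as CPM per kilobase of exon. The summed level of 12 neuron markers ranged from 8733 to 18369 CPM over the 21 libraries and that of 11 Schwann and satellite glia markers from 8965 to 41376 CPM, and both kinds of marker were present in every library. DN-HCN2 libraries were the least alike, with Spearman correlations across genes down to 0.875 within DN-HCN2 base, against 0.947 or more within each control group; genes are not independent replicates.

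Kcnk1 dominated the group. Its level per length averaged 336 CPM per kilobase over the 21 libraries, higher than that of 99.2% of tested genes and 71.2 times that of Kcnj11, the next member, at 4.72. After these came Kcnk3 at 2.89, Kcnk2 at 2.70, Kcnj3 at 1.59, Kcnk9 at 1.30 and Kcnk10 at 1.17 CPM per kilobase. Kcnj9 followed at 0.380, Kcnk12 at 0.177 and Kcnj6 at 0.104 CPM per kilobase. Only the step between Kcnk1 and Kcnj11 separated neighbours in this order without overlap of their libraries. In each library Kcnk1 held between 81.6% and 94.6% of the summed CPM of the 10 genes. Kcnj6 and Kcnk12 were listed at 0 in 7 of 21 libraries each and exceeded 3 counts in only 9 and 8 libraries, and Kcnj9 was at 0 in 2 libraries, so changes in these 3 genes were poorly resolved at this depth.

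**Figure D1:**
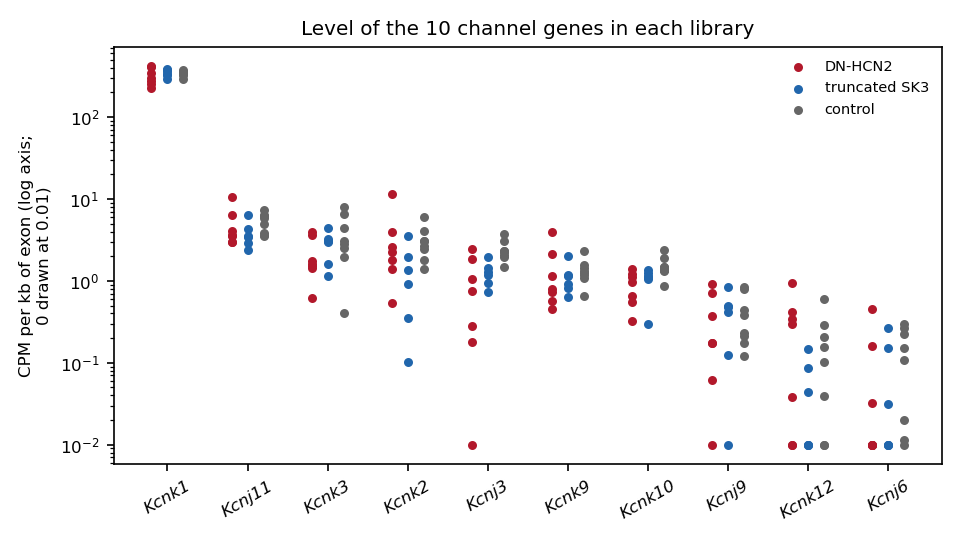
Level of each of the 10 channel genes in CPM per kilobase of exon on a log axis, with each point a library and a level of 0 drawn at 0.01. Kcnk1 lies above every other member in all 21 libraries, and Kcnj6 and Kcnk12 reach 0 in 7 libraries each.

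The first comparison asked how these channel transcripts differed under DN-HCN2. Kcnj3, on chromosome 2 at 55435970 to 55598145 (GRCm38, + strand), was lower under DN-HCN2, and its lowest libraries were those of the base. In DN-HCN2 apex its level was 3.92, 5.51, 12.9 and 9.63 CPM, against 12.2, 10.9, 11.7 and 19.6 CPM in control apex. The DN-HCN2 apex libraries overlapped the controls through replicate 3, while replicates 1, 2 and 4 lay below every control apex library. In DN-HCN2 base the level was 0.937, 1.48 and 0 CPM, against 7.75, 16.1, 10.1 and 12.0 CPM in control base. All 3 DN-HCN2 base libraries lay below all control base libraries, an arrangement that 9.03% of tested genes showed. The 3 libraries held 14, 16 and 0 counts of Kcnj3, and the count of 0 allows a level of up to 0.275 CPM (3 counts; counting error only).

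Over both regions Kcnj3 changed by -2.29 on the log2 scale (SE 0.489, 95% interval -3.31 to -1.27), with an edgeR adjusted p = 0.00898. Of the 10 members, 1 was called in this comparison, where 6.05% of all tested genes were called and 3.61% were called lower. A count of 1 in 10 is near that background, so the result concerns Kcnj3 and not the 10 genes together. With each of the 15 libraries left out in turn the call was kept in 15 of 15 fits, with changes from -2.64 to -2.004. In the base the change was -3.81 (SE 0.787, edgeR adjusted p = 0.0161), and 1 of 10 members was called against 2.14% of tested genes in either direction and 1.3% lower. With 1 library left out it was kept in 7 of 7 fits, at -4.50 without replicate 2 and -3.24 without replicate 3 of DN-HCN2 base and between these in the other fits. The call was lost with limma-voom (adjusted p = 0.0578), in a fit of only the groups compared (edgeR adjusted p = 0.108) and with replicates 2 and 3 left out (edgeR adjusted p = 0.0664), where the single remaining library is assumed to vary like the other groups. In the apex Kcnj3 differed by -0.77 (SE 0.614, edgeR adjusted p = 0.698), and 0 of 10 members were called by edgeR, DESeq2 or limma-voom, with 0 at an unadjusted edgeR p under 0.05; 0.2% of tested genes were called there by edgeR. Each library pools neurons, so fewer Kcnj3-expressing cells and less Kcnj3 RNA per cell cannot be told apart.

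**Figure D2:**
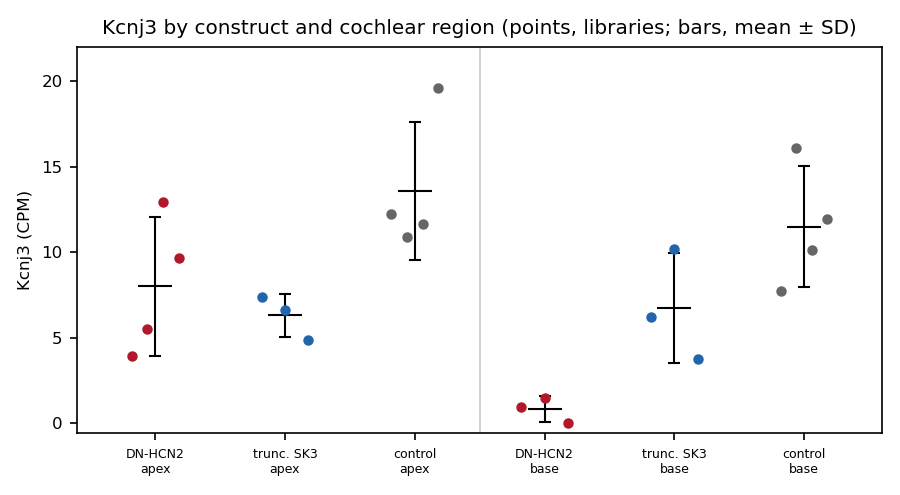
Kcnj3 level in CPM (vertical axis) in each library of the 6 groups, with bars for the mean ± SD. The 3 DN-HCN2 base libraries lie at or below 1.48 CPM, and the control libraries span 7.75 to 19.6 CPM.

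Markers of other cells differed between the same libraries. Macrophage markers (11 genes, all of them detected in at least 1 library) summed to 20.95, 1237 and 854 CPM in DN-HCN2 base replicates 1, 2 and 3, against 15.3 to 34.2 CPM in control base. Replicate 1 of DN-HCN2 base, whose macrophage markers were in the range of control base, had a Kcnj3 level of 0.937 CPM, between those of replicates 2 and 3. Schwann and satellite glia markers (11 genes) summed to 8965 to 13357 CPM in DN-HCN2 base, against 13561 to 25809 CPM in control base, without overlap. Neuron markers (12 genes) summed to 8733, 10838 and 16502 CPM in DN-HCN2 base replicates 1, 2 and 3, against 12580 to 14139 CPM in control base. Single neuron markers went both ways in DN-HCN2 base. Syt2 averaged 114 CPM there against 297 CPM in control base, and Slc17a7 99.5 against 200 CPM. Rbfox3 averaged 126 against 93.2 CPM and Gata3 176 against 72.0 CPM. Replicate 3 of DN-HCN2 base, where no read of Kcnj3 was counted, had the highest neuron marker sum of that group. Its Kcnk1 level of 939 CPM was the highest of all 21 libraries. Without replicates 2 and 3 the Kcnj3 change over both regions was -2.17 (edgeR adjusted p = 0.0214). Supporting cell markers (8 genes) summed to 2337, 153 and 985 CPM in DN-HCN2 base replicates 1, 2 and 3, against 14.6 to 336 CPM in control base, and to 699 to 10275 CPM in DN-HCN2 apex, against 441 to 2190 CPM in control apex. Among the controls, replicate 4 of control apex had macrophage markers of 379.6 CPM, where the other control apex libraries had 29.2 to 52.5 CPM, and it had the highest Kcnj3 level of all libraries, 19.6 CPM. Without that library the Kcnj3 change over both regions was -2.18 (edgeR adjusted p = 0.0225). The part of the neuron, macrophage, glial and supporting cell marker differences in the Kcnj3 result was not tested.

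Whether the Kcnj3 difference was larger in the base was tested as an interaction. It was -3.05 on the log2 scale (SE 0.951, interval -5.03 to -1.07), with an edgeR adjusted p = 0.449, and it ran from -3.73 without replicate 2 to -2.46 without replicate 3 of DN-HCN2 base. No member passed in this comparison by edgeR, 1 had an unadjusted p under 0.05, and 0.00668% of tested genes were called. DESeq2 called it (adjusted p = 0.0236) and limma-voom did not. Within DN-HCN2, base against apex differed by -3.29 (SE 0.769, edgeR adjusted p = 0.0741), and 0 members were called by edgeR (2 at an unadjusted p under 0.05) where 0.214% of tested genes were. All 3 base libraries lay below the 4 apex libraries, as they did for 2.87% of tested genes. That comparison was called by DESeq2 (adjusted p = 4.6e-05), was not by limma-voom, and was by edgeR without replicate 1 of DN-HCN2 apex (edgeR adjusted p = 0.0413). In control, base against apex was -0.24 (SE 0.610, edgeR adjusted p = 1) and the groups overlapped.

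Under truncated SK3 Kcnj3 was at 7.39, 6.61 and 4.88 CPM in the apex, below all 4 control apex libraries at 10.9 to 19.6 CPM. Such an arrangement held for 6.77% of tested genes. In truncated SK3 base it was 6.22, 10.2 and 3.77 CPM, overlapping the 7.75 to 16.1 CPM of control base. Over both regions the difference was -0.94 (SE 0.479, interval -1.94 to 0.06, edgeR adjusted p = 0.517), which did not pass the test. None of the 10 members passed under truncated SK3 over both regions by edgeR, DESeq2 or limma-voom, and 0 had an unadjusted edgeR p under 0.05, where 0.735% of tested genes were called by edgeR. Within its apex and its base the counts of members were likewise 0 by edgeR, at an unadjusted p under 0.05, by DESeq2 and by limma-voom, with 0.254% of tested genes called in the apex and 0.147% in the base. Set directly against each other, DN-HCN2 and truncated SK3 differed in Kcnj3 by -1.35 (SE 0.498, interval -2.39 to -0.31), with an edgeR adjusted p = 0.205. That comparison called 0.655% of tested genes and no member by edgeR, where 1 member had an unadjusted p under 0.05, and none by DESeq2 or limma-voom. Both construct comparisons share the control libraries.

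Ordered by mean and taken upwards, Kcnj3 stood at 0.806 ± 0.750 CPM in DN-HCN2 base (SD, n = 3), 6.29 ± 1.29 CPM in truncated SK3 apex (n = 3), 6.72 ± 3.23 CPM in truncated SK3 base (n = 3) and 7.998 ± 4.08 CPM in DN-HCN2 apex (n = 4). The control groups came last, with 11.5 ± 3.53 CPM in control base and 13.6 ± 4.04 CPM in control apex (n = 4 each). Libraries of neighbouring groups in this order overlapped at every step but that between DN-HCN2 base and truncated SK3 apex. The share of tested genes with such a gap was not counted. By the likeness of log2(CPM + 1) over the 21 libraries, the genes closest to Kcnj3 among 11109 with a mean of at least 5 CPM were Akap10 (Pearson r = 0.91), Adam22 (r = 0.90) and Hps5 (r = 0.89). Akap10 encodes an anchor for protein kinase A, Adam22 a receptor for the synaptic protein LGI1, and Hps5 a subunit of a complex that builds lysosome-related organelles. Adam22 ranged from 62.7 to 155 CPM in DN-HCN2 base, against 264 to 355 CPM in control base. These correlations join libraries that differ by condition, region and the amount of other cells' RNA, and they are a description with no test.

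The remaining GIRK subunits were scarce. Kcnj9 was at 0.261, 0, 0.746 and 0.747 CPM in DN-HCN2 apex, all below the 0.903 to 3.66 CPM of control apex, as was the case for 4.88% of tested genes. In the base the order was otherwise, with 1.61, 3.06 and 3.94 CPM in DN-HCN2 base, against 0.523 to 3.45 CPM in control base. Base libraries therefore lay above apex libraries within DN-HCN2 without overlap, as for 3.63% of tested genes, and the same held within truncated SK3, with 2.03 to 3.57 CPM in the base against 0 to 1.79 CPM in the apex, as for 6.27% of tested genes. EdgeR called none of these differences. The Kcnj9 difference of DN-HCN2 base over apex was 2.69 (SE 1.28, edgeR adjusted p = 0.41), that of truncated SK3 base over apex 1.71 (SE 1.37, edgeR adjusted p = 0.755) and the average over the 3 conditions 1.43 (SE 0.731, edgeR adjusted p = 0.385). Kcnj6 reached its highest level, 3.48 CPM, in replicate 3 of DN-HCN2 base and was at 0 in the other 2 libraries of that group. Its log2 difference of -0.55 over both regions had an interval of -3.48 to 2.37, and it was -4.02 without replicate 3 of DN-HCN2 base and -0.072 without replicate 3 of control apex. Kcnj5, which encodes GIRK4, the partner of GIRK1 in the heart, was at 0 in 20 of 21 libraries.

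Kcnj11, the ATP-sensitive channel pore, was at 11.1, 13.1, 39.1 and 23.7 CPM in DN-HCN2 apex, against 13.1 to 23.2 CPM in control apex. In DN-HCN2 base it was at 13.3, 11.1 and 15.04 CPM, against 13.5 to 26.8 CPM in control base. The groups overlapped in both regions, and replicate 3 of DN-HCN2 apex stood highest. Truncated SK3 libraries held 8.80 to 15.7 CPM in the apex and 12.7 to 23.5 CPM in the base. Over both regions the log2 difference was -0.17 (interval -0.73 to 0.39) under DN-HCN2 and -0.45 (interval -1.04 to 0.14) under truncated SK3. Abcc8, its sulfonylurea receptor partner, averaged 33.5 CPM over the libraries and Abcc9, the alternative partner, 1.01 CPM. Neither of these 2 passed over both regions by edgeR under either construct, with 0 at an unadjusted p under 0.05. Per kilobase Abcc8 averaged 4.14 CPM, next to 4.72 CPM for Kcnj11.

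Among the leak channels, Kcnk1 (chromosome 8, 125995170 to 126030685, + strand) varied least, with a coefficient of variation of 0.148 over the 21 libraries. DN-HCN2 apex libraries held 664, 611, 777 and 911 CPM and DN-HCN2 base libraries 503, 565 and 939 CPM, against 648 to 802 CPM in control apex and 728 to 842 CPM in control base. The DN-HCN2 libraries thus spread to both sides of the controls. Its log2 difference was -0.12 (interval -0.37 to 0.12) under DN-HCN2 and 0.02 (interval -0.24 to 0.27) under truncated SK3, the narrowest intervals of the 10 genes. In truncated SK3 base the level was 847, 860 and 822 CPM, above all 3 truncated SK3 apex libraries at 658, 732 and 748 CPM, an arrangement found for 6.27% of tested genes. That regional difference was 0.24 (SE 0.187, edgeR adjusted p = 0.737). Genes closest to Kcnk1 over the libraries were the glycolytic enzyme gene Pgam1 (r = 0.90), the phospholipid acyltransferase gene Lpcat4 (r = 0.88) and Sh3gl2 (r = 0.87), which encodes endophilin A1 of synaptic vesicle recycling.

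Neither of the acid-sensitive channels Kcnk3 and Kcnk9 passed the test under either construct. Kcnk3 was at 6.01, 7.01, 2.49 and 6.42 CPM in DN-HCN2 apex, against 1.63, 17.4, 10.1 and 12.3 CPM in control apex. Of the 4 control apex libraries, 3 lay above all DN-HCN2 apex libraries and replicate 1 lay below them. In DN-HCN2 base it was at 14.6, 15.8 and 5.69 CPM, against 7.80 to 31.3 CPM in control base. Its log2 difference of -0.79 over both regions (interval -1.72 to 0.13, edgeR adjusted p = 0.311) did not pass. Kcnk9 spanned 5.62 to 48.5 CPM within DN-HCN2 apex alone, against 13.3 to 19.4 CPM in control apex, and its difference over both regions was -0.14 (interval -0.93 to 0.65). Replicate 3 of DN-HCN2 apex held the highest level of both Kcnk9 and Kcnj11 and the highest neuron marker sum, 18369 CPM. Over the 21 libraries Kcnj11 and Kcnk9 had the highest correlation of the 21 pairs among the 7 members with a mean of at least 5 CPM (r = 0.67), and Kcnk1 and Kcnk3 the lowest (r = -0.28). Genes closest to Kcnk9 were Ube2o (r = 0.89), Traf3 (r = 0.88) and Fam189a2 (r = 0.87).

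The stretch-sensitive channels Kcnk2 and Kcnk10 did not pass either, though Kcnk10 was lower throughout DN-HCN2 base. Kcnk10 was at 10.8, 9.73 and 4.86 CPM in DN-HCN2 base, below every control base library at 11.8 to 20.7 CPM. Kcnj3 and Kcnk10 were the 2 members in this arrangement, which 9.03% of tested genes showed. In DN-HCN2 apex Kcnk10 was at 8.62, 12.4, 5.72 and 2.84 CPM, overlapping the 7.52 to 16.9 CPM of control apex. Over both regions the log2 difference was -0.75 (SE 0.349, interval -1.47 to -0.02), with an edgeR adjusted p = 0.214, so it was not called. Under truncated SK3 it was -0.57 (interval -1.32 to 0.18). Kcnk2 had 56.6 CPM in replicate 1 of DN-HCN2 base, the library with the group's highest fibroblast marker sum (3428 CPM), and 6.86 and 12.7 CPM in the other 2. Within control base too, the library with the highest fibroblast marker sum (replicate 3, 3477 CPM) had the highest Kcnk2 level, 29.8 CPM. The lowest sum there (replicate 4, 383 CPM) came with the lowest level, 8.93 CPM. The same order held in truncated SK3 apex and base. It did not in DN-HCN2 apex, where replicate 3 had the lowest sum (393 CPM) and the highest Kcnk2 level, 19.3 CPM. In control apex replicate 3 had a sum of 960 CPM and the lowest Kcnk2 level, 6.98 CPM. In DN-HCN2 base the lowest sum (replicate 3, 597 CPM) came with 12.7 CPM of Kcnk2, not the lowest level. The Kcnk2 difference under DN-HCN2 was 0.13 with all libraries and -0.56 without replicate 1 of DN-HCN2 base. The part of the fibroblast markers was not tested. Under truncated SK3 the difference was -1.13 (interval -2.43 to 0.17, edgeR adjusted p = 0.56). Kcnk12 never exceeded 1.87 CPM, and its intervals ran from -1.58 to 3.44 under DN-HCN2 and from -4.42 to 1.28 under truncated SK3.

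**Figure D3:**
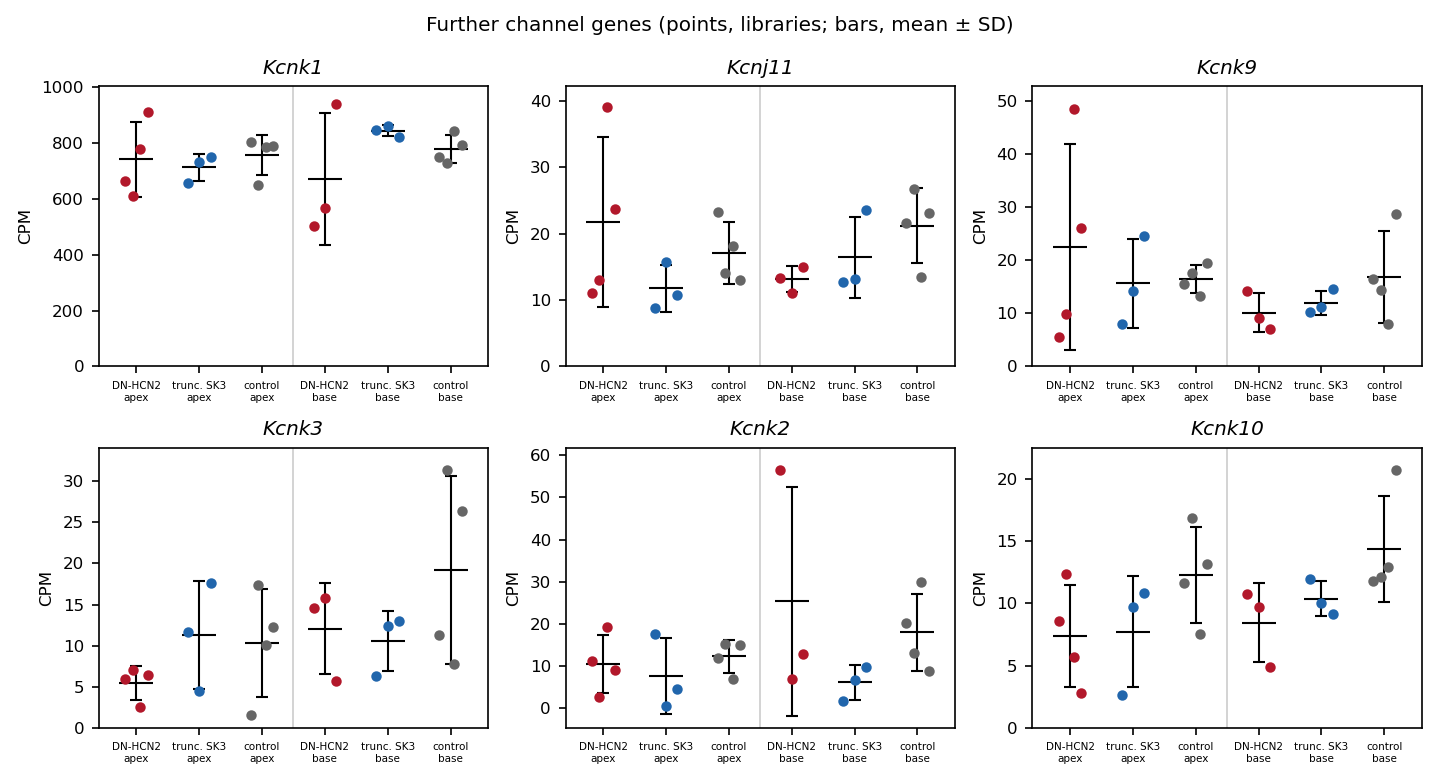
Levels in CPM of Kcnk1, Kcnj11, Kcnk9, Kcnk3, Kcnk2 and Kcnk10 in each library of the 6 groups, with bars for the mean ± SD. Groups overlap in most panels, Kcnk10 in DN-HCN2 base lies below control base, and single DN-HCN2 libraries stand high for Kcnk2 (56.6 CPM) and Kcnk9 (48.5 CPM).

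Viewed over the 10 genes, 8 had a negative log2 difference under DN-HCN2 over both regions, with a median of -0.36, where 47.5% of all tested genes were negative with a median of 0.03. Under truncated SK3, 9 of 10 were negative with a median of -0.51, where 49.0% of all tested genes were negative with a median of 0.01. The control libraries are the same in both comparisons, and 9 and 10 of the 10 genes did not pass the test in them. Base against apex, averaged over the 3 conditions, was negative for Kcnj3 (-1.15, SE 0.394, edgeR adjusted p = 0.175) and Kcnk9 (-0.50, edgeR adjusted p = 0.51) and positive for the other 8. No member was called by edgeR, 1 had an unadjusted p under 0.05, DESeq2 called Kcnj3 (adjusted p = 0.023) and limma-voom called none; 1.16% of tested genes were called by edgeR. In control alone edgeR called no member and 0% of tested genes for region, and 0 members had an unadjusted p under 0.05, with 0 by DESeq2 and limma-voom. Base against apex under truncated SK3 and the interaction of truncated SK3 with region likewise had 0 members by edgeR, at an unadjusted p under 0.05, by DESeq2 and by limma-voom, with 0.0134% and 0% of tested genes called.

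**Figure D4:**
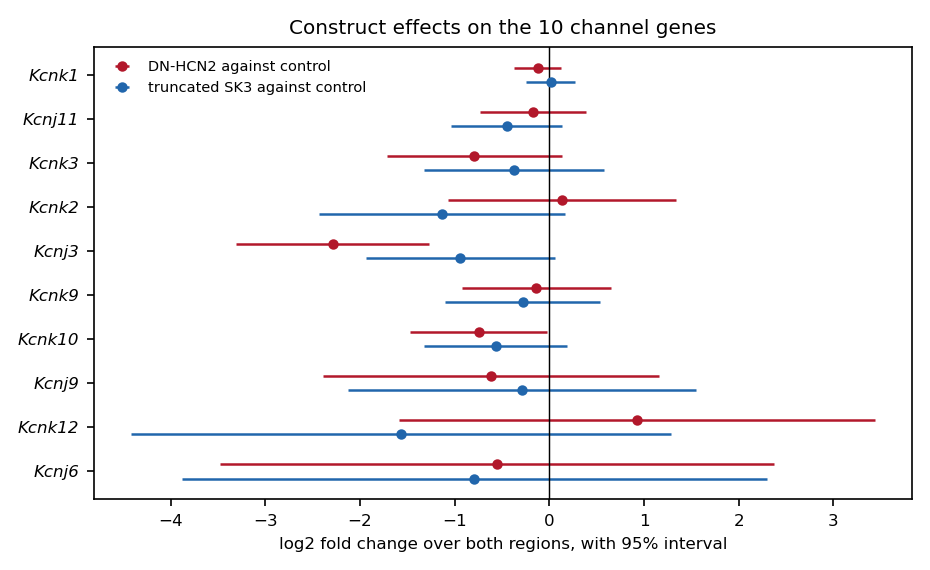
Log2 fold change over both regions with its 95% interval (horizontal axis) for the 10 channel genes, ordered by level per kilobase, under DN-HCN2 (upper of each pair) and truncated SK3 (lower), each against control. Kcnj3 under DN-HCN2, at -2.29, lies furthest from 0 relative to its interval, and the intervals of Kcnk1 are the narrowest.

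Among 20 listed G protein subunits that act upstream of GIRK channels, all tested, Gnb1 fell in both construct comparisons, which share the control libraries. Gnb1 (chromosome 4, 155491361 to 155559269, + strand) encodes a beta subunit, part of the beta-gamma dimer that opens GIRK channels. Its level was 1295, 528, 699 and 462 CPM in DN-HCN2 apex and 1555, 1118 and 534 CPM in DN-HCN2 base. In truncated SK3 it was 247, 409 and 750.2 CPM in the apex and 383, 246 and 594 CPM in the base. Control libraries held 1715 to 2247 CPM in the apex and 1533 to 2112 CPM in the base. All 6 truncated SK3 libraries lay below all 8 control libraries, as for 0.681% of tested genes, and among the 7 DN-HCN2 libraries replicate 1 of the base overlapped the lowest control. The log2 change was -2.13 under truncated SK3 (SE 0.3, edgeR adjusted p = 0.000569), kept in 14 of 14 fits with a library left out. Under DN-HCN2 it was -1.10 (SE 0.276, edgeR adjusted p = 0.0249), kept in 12 of 15 such fits and lost without replicates 2 and 3 of DN-HCN2 base (-0.82, edgeR adjusted p = 0.214). Within regions the truncated SK3 calls (edgeR adjusted p = 0.0438 in the apex and 0.043 in the base) were lost in 6 of 7 and 7 of 7 fits with a library left out.

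Some other subunits rose under DN-HCN2. Of the 20 listed, 3 were called higher and 1 lower over both regions, where 2.45% of all tested genes were called higher and 3.61% lower. Under truncated SK3, 0 were called higher and 1 lower, where 0.327% of all tested genes were called higher and 0.408% lower. Gnai2, an inhibitory alpha subunit, was at 60.6 to 107 CPM in DN-HCN2 libraries, above all control libraries at 32.7 to 55.1 CPM as were 0.722% of tested genes, and changed by 0.84 (SE 0.167, edgeR adjusted p = 0.00581). It was called in 15 of 15 fits with a library left out. In the base alone Gnai2 changed by 0.95 (SE 0.244, edgeR adjusted p = 0.0477), a call kept in 1 of 7 such fits. There 1 of the 20 listed subunits was called higher and 0 lower, beside 0.842% of all tested genes called higher and 1.3% lower. Truncated SK3 libraries held 62.1 to 104 CPM of Gnai2 and also lay above all control libraries, as for 0.354% of tested genes, with a difference of 0.69 that missed the threshold (SE 0.173, edgeR adjusted p = 0.0751). DN-HCN2 and truncated SK3 differed in Gnai2 by 0.15 (SE 0.18, edgeR adjusted p = 0.765). The gamma subunit gene Gng5 changed by 0.58 (edgeR adjusted p = 0.0407), a call kept in 4 of 15 such fits. Gng10 changed by 0.97 (edgeR adjusted p = 0.00351, 15 of 15 fits), but 78.9% of its 50-base stretches also occur in Gm20503, so its counts are uncertain. Of 25 listed receptors that couple to GIRK channels 12 were tested, and none passed in a construct comparison over both regions by edgeR, with 3 at an unadjusted p under 0.05 under DN-HCN2 and 2 under truncated SK3. The adenosine A1 receptor gene Adora1 rose in the base against the apex over the 3 conditions by 1.83 (SE 0.297, edgeR adjusted p = 0.00461), a call kept in 21 of 21 fits with a library left out. It was at 22.9 to 30.6 CPM in DN-HCN2 base against 3.74 to 9.78 CPM in DN-HCN2 apex. Truncated SK3 libraries held 11.6 to 29.6 CPM in the base against 4.67 to 9.09 CPM in the apex, and control libraries 4.10 to 25.6 CPM in the base against 2.36 to 4.55 CPM in the apex. Of its 50-base stretches 20.8% occur in Mybph on the opposite strand. Stria vascularis markers (6 genes) differed with region without overlap in control, at 77.8 to 783 CPM in the base against 7.20 to 12.6 CPM in the apex. Under DN-HCN2 the regions overlapped, at 19.5 to 614 CPM in the base against 12.9 to 93.6 CPM in the apex. They also overlapped under truncated SK3, at 38.5 to 1317 CPM in the base against 11.4 to 55.5 CPM in the apex. The part of these markers in the Adora1 result was not tested. Of 15 regulators of G protein signalling and GIRK trafficking, none passed in a construct comparison over both regions by edgeR, with 3 at an unadjusted p under 0.05 under DN-HCN2 and 2 under truncated SK3. Rgs6, which speeds the closing of GIRK channels, fell in the base against the apex over the 3 conditions by 0.48 on the log2 scale (edgeR adjusted p = 0.0305), kept in 13 of 21 fits.

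Among the relatives of the 10 genes, the glial channel Kcnj10 (Kir4.1), which clears potassium around neurons, was the highest inward rectifier tested per length, at 28.8 CPM per kilobase. It was at 63.3, 143, 150.2 and 128 CPM in DN-HCN2 apex and 66.3, 60.6 and 101 CPM in DN-HCN2 base, against 282, 210.2 and 183 CPM in truncated SK3 apex and 266, 235 and 160 CPM in truncated SK3 base. All 7 DN-HCN2 libraries lay below the 6 truncated SK3 libraries, as for 0.261% of tested genes, and the log2 change between them was -1.22 (SE 0.191, edgeR adjusted p = 0.00418), kept in 13 of 13 fits with a library left out and lost in a fit of only those 2 constructs (edgeR adjusted p = 0.074). Control libraries held 116 to 174 CPM in the apex and 132 to 191 CPM in the base. Against control DN-HCN2 changed it by -0.67 over both regions (SE 0.179, edgeR adjusted p = 0.031, 10 of 15 fits) and by -1.10 in the base (edgeR adjusted p = 0.0381, 2 of 7 fits), and both calls were lost with replicates 2 and 3 of the base left out (edgeR adjusted p = 0.0855 and 0.167). Kcnj10 is itself expressed by satellite glia, and the Schwann and satellite glia marker sum was lower in DN-HCN2 base (8965 to 13357 CPM) than in truncated SK3 base (17564 to 41376 CPM) without overlap. In the apex these sums overlapped, with means of 14245 CPM under DN-HCN2 and 14363 CPM under truncated SK3. Kcnj10 averaged 121 ± 39.6 CPM in DN-HCN2 apex (SD, n = 4) and 225 ± 51.2 CPM in truncated SK3 apex (n = 3). Supporting cell marker sums averaged 3396 CPM in DN-HCN2 apex and 3026 CPM in truncated SK3 apex, but single markers went both ways. Gjb2 averaged 151 and 596 CPM in these 2 groups, and Tectb 2124 and 485 CPM. The part of RNA from glia, supporting cells or other cells in the Kcnj10 result was not tested. Of the 11 other inward rectifiers listed 7 were tested and Kcnj10 alone was called, and of 8 other tandem-pore (K2P) genes 3 were tested and none was called by edgeR over both regions, with 1 at an unadjusted p under 0.05 under DN-HCN2. Partners of K2P channels, 10 genes, had 1 called higher and 1 lower under DN-HCN2, beside 2.45% higher and 3.61% lower of all tested genes. S100a10, the TASK1 adaptor, changed by 0.88 (edgeR adjusted p = 0.0447, 3 of 15 fits). The microtubule gene Map2 changed by -0.86 (edgeR adjusted p = 0.0196, 13 of 15 fits).

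**Figure D5:**
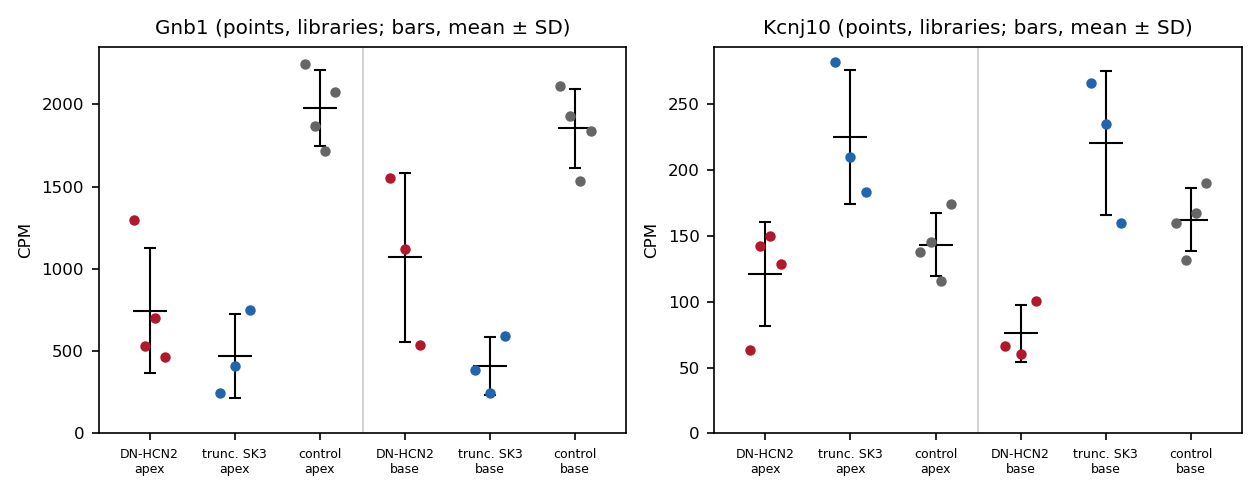
Levels in CPM of Gnb1 (left) and Kcnj10 (right) in each library of the 6 groups, with bars for the mean ± SD. Truncated SK3 libraries of Gnb1 lie at 246 to 750.2 CPM, below all controls, and DN-HCN2 base libraries of Kcnj10 lie at 60.6 to 101 CPM.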

How the data were processed

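Spiral ganglion neurons were measured in 21 libraries, grouped by virus and cochlear region as their titles give them. The authors deposited whole-number read counts for each symbol in 1 table. Per the submitters' processing notes, the tools included Trimmomatic, HISAT2 and DESeq2 (no versions given) and the build was GRCm38, also written mm10. The counter, its annotation and its use of strand are not given in the sources used here.

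Counts were filtered with filterByExpr (minimum count 10), which left 14968 genes, scaled by TMM and tested by robust quasi-likelihood in edgeR (version 4.0.16, under R 4.3.3) on all 21 libraries at once, each group having its own mean. P-values of 13 comparisons were adjusted over all tested genes (Benjamini-Hochberg, false discovery rate 0.05). SE and 95% intervals follow from the F statistic. An effect over both regions is the mean of the regional effects. Coordinates, exon lengths and sequences are from GENCODE M21, which held 96.6% of the tested symbols. Means ± SD are over libraries.

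The 10 genes, the 8 gene lists and the 7 marker lists were chosen with earlier results of these data known. Genes named were the 10, every list gene called (at most 4 per list and comparison by p) and, for members with a mean of at least 5 CPM, the 3 genes most correlated over the libraries. The alternatives were RLE factors, no low-count filter, DESeq2 1.42.0, limma-voom (limma 3.58.1) with quality weights, only the groups compared, a replicate block, each library left out, other CPM scalings, a pseudocount of 0.1 CPM in place of 1, and, chosen after seeing the data, leaving out the 2 libraries rich in macrophage markers. The code was tested on simulated data. Figures were drawn with matplotlib 3.10.9. Library totals of 10411634 to 15138780 counts set the precision, and intervals from counts cover counting error only.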

Additional observations from a re-analysis of the deposited data

Results flagged for a closer look

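Within 30 groups of 4 libraries (10 genes in 3 groups), 3 had a library far from the others, and chance alone gives about 1 in 20. Kcnj3 was at 19.6 CPM in replicate 4 of control apex, where the others were at 10.9 to 12.2 CPM. Kcnk1 was at 648 CPM in replicate 2 of control apex, where the others were at 785 to 802 CPM. Kcnk10 was at 20.7 CPM in replicate 4 of control base, where the others were at 11.8 to 12.9 CPM.

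For 2 genes, every truncated SK3 base library lay above the control base mean and every truncated SK3 apex library below the control apex mean. The share of all tested genes in this arrangement was not counted. For Kcnj9 it rested on replicate 2 of truncated SK3 apex, at 1.795 CPM against a control apex mean of 1.797 CPM. Kcnj9 averaged 2.57 CPM in truncated SK3 base and 0.774 CPM in truncated SK3 apex, against 1.66 CPM in control base and 1.80 CPM in control apex. Kcnk1 averaged 843 CPM in truncated SK3 base and 712 CPM in truncated SK3 apex, against 779 CPM in control base and 755 CPM in control apex. The interaction of truncated SK3 and region did not pass for either gene (1.83 with SE 1.78 for Kcnj9 and 0.20 with SE 0.247 for Kcnk1, edgeR adjusted p = 1 for both).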

How the results depend on the processing

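The Kcnj3 fall under DN-HCN2 over both regions was called in every alternative run, at -2.54 to -2.17 on the log2 scale besides the fits with a library left out. In the base the count of members called was 0 with limma-voom, with only the groups compared and without the 2 libraries rich in macrophage markers, against 1. DESeq2 called 1 member, Kcnj3, for base against apex averaged over conditions, for base against apex under DN-HCN2 and for the interaction of DN-HCN2 and region, against 0 in each by edgeR. With a library left out, the count for base against apex under DN-HCN2 ranged from 0 to 1. The cause of these differences was not tested.

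Differences that were never called turned sign in some fits. Kcnk2 under DN-HCN2 was -0.46 with limma-voom, -0.22 with the replicate block and -0.56 to 0.36 with a library left out. Kcnk9 under DN-HCN2 was 0.11 without the macrophage-rich libraries and -0.48 to 0.048 with a library left out, and Kcnk12 was -0.16 with limma-voom. Under truncated SK3, Kcnj9 was 0.033 with the replicate block and -1.05 to 0.011 with a library left out, and Kcnk1 -0.037 to 0.035. For Kcnj3, base against apex under truncated SK3 ranged from -0.34 to 0.38 and the interaction of truncated SK3 and region from -0.089 to 0.62.

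Libraries of the same replicate number in different groups did not deviate together (correlations -0.22 to 0.31, 8 of 48 pairs over 0.1). For apex and base of a condition the correlations were -0.099 to 0.19, with a median of 0.052 and 3 of 10 over 0.1. The numbers were therefore not taken as pairs, although every truncated SK3 library correlated best with its own number across regions, a hint from the data that the other conditions did not share. With the number as a block within condition, Kcnj3 in base against apex under DN-HCN2 was -3.24 (edgeR adjusted p = 0.467). With the replicate number as a block, Kcnj3 under DN-HCN2 was -2.25 (edgeR adjusted p = 0.0213) and -3.80 in the base (0.0371), and the calls of Kcnj10 against control were lost (0.0706 and 0.0921). All genes called under DN-HCN2 over both regions numbered 906, and 602 with the block, 475 without the macrophage-rich libraries, 1646 with DESeq2 and 1483 with limma-voom. Kcnk1 in truncated SK3 base was 813 CPM on plain totals. With a pseudocount of 0.1 CPM, Akap10 (r = 0.89) left the 3 genes closest to Kcnj3.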

Other observations

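The sodium leak channel NALCN carries the inward current that opposes potassium leak, in a complex with UNC79, UNC80 and FAM155A. All 4 genes found in the table (of 5 listed) were tested. None was called over both regions by edgeR, with 2 at an unadjusted p under 0.05 under DN-HCN2 and 0 under truncated SK3. All 4 log2 differences were negative under DN-HCN2 (median -0.40), as were 47.5% of all tested genes, and all 4 under truncated SK3 (median -0.21), as were 49.0% of all tested genes. The control libraries are the same in both. Unc80 averaged 84.2 ± 69.8 CPM (SD, n = 4) in DN-HCN2 apex and 27.1 ± 15.3 CPM (n = 3) in DN-HCN2 base, against 91.7 ± 8.02 CPM in control apex and 85.5 ± 29.5 CPM in control base (n = 4 each). Under DN-HCN2 it differed by -0.89 on the log2 scale (SE 0.358, edgeR adjusted p = 0.149). Nalcn differed by -0.58 (SE 0.276, edgeR adjusted p = 0.222).

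Kcnj13 and Kcnj16, inward rectifiers known from epithelia, were uneven between libraries. Kcnj16 ranged from 0.136 to 202 CPM and Kcnj13 from 0 to 186 CPM over the 21 libraries, and neither was called over both regions. Kcnk13, the THIK1 gene expressed by microglia and macrophages, was at 0 in all 7 DN-HCN2 libraries, 2 of which were rich in macrophage markers. It was not called against control over both regions (edgeR adjusted p = 0.052). Its levels in the other groups are not given here, and the share of tested genes at 0 in all 7 DN-HCN2 libraries was not counted.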
